A study of Mus musculus with 6 samples.

Results

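The 34 genes described here make up the p53 pathway and a set of its transcriptional targets in mouse bone-marrow-derived macrophages (BMDM), phagocytes grown in culture from marrow precursors. They were taken by symbol, and each symbol matched 1 of the 55401 genes of the deposited table. Of the 34, 29 reached 0.5 FPKM (fragments scaled to transcript length and library size) in at least 3 of the 6 libraries, the minimum for testing, among 12084 genes that did so in all. The study measured total RNA depleted of ribosomal RNA. In the 3 L-OHP+FUC samples, cells on day 7 of culture first received 250 µg/ml of fucoidan, a sulfated polysaccharide from brown seaweed, over 12 h, and then 5 µM of L-OHP (commonly oxaliplatin, a platinum drug) over another 12 h. In the 3 L-OHP samples they received that drug exposure alone. Both groups had therefore received the drug, and cells without the drug or with fucoidan alone were not analysed here. The labels state neither the strain, sex and age of the mice nor whether replicates came from separate cultures or animals, so the p-values may reflect technical spread alone.

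The transcription factor p53 is held at a low level by Mdm2, a ubiquitin ligase that marks it for destruction, and by Mdm4, a relative of Mdm2 that blocks its activity. DNA damage, of which platinum adducts are a classic source, frees p53 from this restraint through kinases such as ATM, and p53 then raises transcription of genes that stop the cell cycle, repair DNA, trigger apoptosis or limit growth. Mdm2 is itself such a target, which closes a negative feedback loop. Much of the control of p53 acts on the protein, which RNA sequencing does not measure.

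The level of Trp53 mRNA, which encodes p53, differed by less than the test could resolve. Mdm2, the proapoptotic Trp53inp1, the growth restraint gene Sesn1, the spindle protein gene Psrc1 and the repair genes Polk and Ercc5 were lower in macrophages given fucoidan before the drug, at 0.227 to 0.548 times their mean FPKM with the drug alone. Mdm4, Aen and Zmat3 fell less, to 0.615, 0.718 and 0.709 times. The widely used p53 target genes Cdkn1a and Bax did not pass the test, and Plk3, a stress-responsive kinase, was the member that rose. In all, 9 of the 29 tested members were lower in L-OHP+FUC, 1 was higher and 19 did not pass limma's test at an adjusted p of 0.05 (Benjamini-Hochberg over all 12084 genes). Among all tested genes 19.3% were called lower and 7.67% higher, or 27% in either direction, so that 9 of 29 members (31.0%) lie above the background share of lower calls and 1 of 29 (3.45%) below that of higher calls. The 9 include Psrc1, which reached the minimum for testing only in L-OHP and so had to differ; of the other 28 tested members 8 were lower (28.6%). The median log2 fold change of the 29 was -0.28, against -0.10 for all tested genes. Fold changes throughout put L-OHP+FUC over L-OHP on the scale log2(FPKM + 1), which understates the change of genes near or under 1 FPKM. In bulk RNA, fewer cells carrying a transcript and less RNA per cell cannot be told apart.

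**Figure D1:**
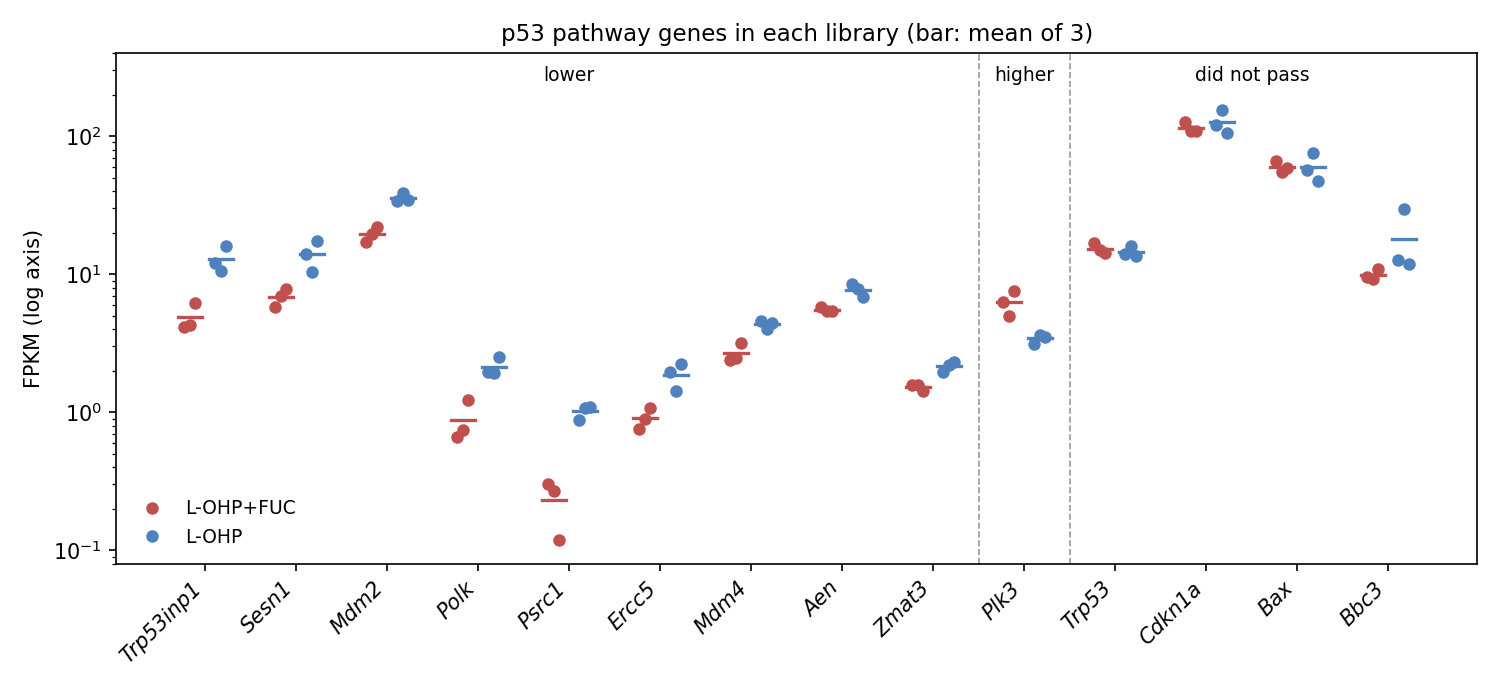
FPKM in each of the 6 libraries (log axis) for the 10 members past the threshold and for Trp53, Cdkn1a, Bax and Bbc3; red points are L-OHP+FUC, blue points L-OHP, and bars are means of 3. The 9 lower members have every L-OHP+FUC point below every L-OHP point, which for Psrc1 was fixed by the minimum for testing. Trp53, Cdkn1a and Bax overlap, and L-OHP replicate 2 stands high for Bbc3 at 29.6 FPKM.

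The libraries had an implied depth of 15.7 to 18.6 M fragments, read from the steps between low FPKM values. Pearson's r of log2(FPKM + 1) across tested genes, which are not independent replicates, was 0.983 to 0.988 within L-OHP+FUC, 0.968 to 0.981 within L-OHP and 0.950 to 0.965 between the groups. All 8 macrophage markers were tested, with a summed level of 13574 to 14559 FPKM in L-OHP+FUC and 12603 to 17957 FPKM in L-OHP, most of it Lyz2. Of the 8, the efferocytosis receptor gene Mertk (log2 fold change -0.74, limma adjusted p = 0.00432) and the Fc receptor gene Fcgr1 (-0.69, adjusted p = 0.0268) were lower, and Csf1r, the receptor of the macrophage growth factor, was higher (0.47, adjusted p = 0.0233). Of 5 T and NK cell markers 4 were listed at 0 in every library, and the 4 B cell, 5 dendritic, 5 erythroid and 3 mast cell and basophil markers were all untested for low level. The 9 neutrophil markers summed to 5.70 to 6.56 FPKM in L-OHP+FUC and 3.79 to 4.26 FPKM in L-OHP, with Ly6g and Cxcr2 listed at 0 in all libraries and S100a8 called higher (log2 fold change 0.54, limma adjusted p = 0.0162), and the 6 fibroblast markers to 7.09 to 7.52 and 4.84 to 11.8 FPKM. Whether these markers had a part in the results below was not tested.

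Trp53 itself, on chromosome 11 (69580359 to 69591873, GENCODE M21 on GRCm38), stood at 16.8, 15.0 and 14.3 FPKM in L-OHP+FUC and at 13.9, 15.9 and 13.5 FPKM in L-OHP, in the order of the replicate numbers, as below. The groups overlap. The log2 fold change was 0.080 (95% interval -0.16 to 0.32; limma adjusted p = 0.585).

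The genes that restrain p53 had 2 lower members of 4. Mdm2, on chromosome 10 (117688875 to 117710758), stood at 17.1, 19.5 and 22.1 FPKM in L-OHP+FUC and at 33.8, 39.0 and 34.2 FPKM in L-OHP. The groups are far apart relative to their spread, with means of 19.5 ± 2.49 and 35.7 ± 2.91 FPKM (SD, n = 3 each; log2 fold change -0.84, SE 0.12, limma adjusted p = 0.00695). Mdm4, on chromosome 1 (132959484 to 133030561), stood at 2.38, 2.48 and 3.18 FPKM in L-OHP+FUC and at 4.61, 4.02 and 4.45 FPKM in L-OHP (log2 fold change -0.55, SE 0.11, adjusted p = 0.0174). Its groups do not overlap either, but the call was lost without L-OHP+FUC replicate 1, L-OHP+FUC replicate 2 or L-OHP replicate 1 (limma adjusted p = 0.0628 to 0.0691). After correction of each library for GC content and transcript length its log2 fold change was -0.20 (adjusted p = 0.120; 0.0148 to 0.194 over its 14 alternatives). Ccng1, a cyclin that brings a phosphatase to Mdm2, did not pass, with 26.7, 26.6 and 35.7 FPKM in L-OHP+FUC and 40.2, 36.1 and 47.0 FPKM in L-OHP (log2 fold change -0.46, adjusted p = 0.0613). It passed with the replicate number as a block (limma adjusted p = 0.0372), without L-OHP+FUC replicate 3 (0.0304) and without L-OHP replicate 2 (0.0462). With GC content and length corrected for, Ccng1 stood at -0.19 (limma adjusted p = 0.190, the highest over its 15 alternatives). Ppm1d, a phosphatase that removes activating marks from p53 and its kinases, overlapped between the groups, at 3.69 to 4.29 FPKM in L-OHP+FUC and 4.04 to 5.23 FPKM in L-OHP (log2 fold change -0.14, adjusted p = 0.373). All 4 restraint genes had a negative fold change, though that of Ppm1d was 0.022 under quantile normalization. A negative fold change was also found for 20 of the 29 tested members and for 7356 of all 12084 tested genes.

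The letters around the starts of 4 genes are shown as examples. They hold a match to the p53 consensus decamer in 3 genes that were lower (Mdm2, Sesn1 and Aen) and in Cdkn1a, which did not pass. Matches were also found in Polk, which was lower, and in Bax, Ccng1, Ei24, Ppm1d, Rap2b and Trp53, which did not pass. The untested Ddit4l held one as well. Each stretch shown is a RefSeq window (GRCm38.p6) from 250 bases before to 50 bases after an annotated start. Capitals mark the decamer, the unit of which a full p53 binding element holds a pair. The consensus pattern reads the same on both strands, although a single match to it need not.
Mdm2, chr10:117710709-117711008, minus strand: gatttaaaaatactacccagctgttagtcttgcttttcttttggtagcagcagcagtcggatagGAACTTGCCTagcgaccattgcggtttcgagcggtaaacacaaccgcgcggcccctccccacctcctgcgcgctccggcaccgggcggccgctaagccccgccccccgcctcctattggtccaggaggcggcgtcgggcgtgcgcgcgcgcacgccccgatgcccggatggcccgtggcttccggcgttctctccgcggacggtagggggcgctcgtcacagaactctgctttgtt
Sesn1, chr10:41887189-41887488, plus strand: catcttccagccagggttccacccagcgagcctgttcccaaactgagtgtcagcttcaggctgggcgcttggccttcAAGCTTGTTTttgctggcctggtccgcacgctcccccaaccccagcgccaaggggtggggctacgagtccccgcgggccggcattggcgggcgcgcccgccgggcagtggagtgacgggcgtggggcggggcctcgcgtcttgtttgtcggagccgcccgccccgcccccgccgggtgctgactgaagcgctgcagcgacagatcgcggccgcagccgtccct
Aen, chr7:78895677-78895976, plus strand: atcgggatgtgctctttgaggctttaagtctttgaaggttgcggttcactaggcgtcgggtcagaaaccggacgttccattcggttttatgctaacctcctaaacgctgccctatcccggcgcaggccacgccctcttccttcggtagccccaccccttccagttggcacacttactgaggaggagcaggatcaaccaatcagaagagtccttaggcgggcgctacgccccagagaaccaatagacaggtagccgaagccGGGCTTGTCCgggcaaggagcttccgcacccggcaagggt
Cdkn1a, chr17:29090729-29091028, plus strand: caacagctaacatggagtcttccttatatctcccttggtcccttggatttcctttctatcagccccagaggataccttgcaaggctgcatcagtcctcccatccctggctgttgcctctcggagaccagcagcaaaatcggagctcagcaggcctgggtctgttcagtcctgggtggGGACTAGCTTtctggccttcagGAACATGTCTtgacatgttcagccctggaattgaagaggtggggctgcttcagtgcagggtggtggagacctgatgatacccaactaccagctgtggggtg
The match in the Mdm2 window begins at base -186 and that in the Sesn1 window at base -173, counted back from the start, whereas that in the Aen window begins at base 11 of the transcript. The Cdkn1a window holds 2 exact matches separated by 12 bases, the first beginning at base -73. The letters directly after the second match, tgacatgttc, differ from the consensus at their first base only. They are not marked, because the search allowed no mismatch. Which of these decamers form an element was not tested. Aen, Sesn1 and Cdkn1a each have another annotated start with a window of its own. In that of Aen the same decamer begins at base -121, and those of Sesn1 and Cdkn1a hold none. Of 32851 windows of this length 8.36% hold a decamer, and 24 hold a pair separated by at most 13 bases. Windows were found for 26 of the 34 genes, and 12 of these hold a decamer in at least 1 window, against 9.55% of all 27025 genes in the table. Among the 26 members with a window used, a decamer was found for 4 of the 7 lower members, 7 of the 15 that did not pass and not for Plk3. A match describes the letters only, and binding was not measured.

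Among the 7 cell cycle genes, 6 were tested, of which 1 fell, 1 rose and 4 did not pass. Cdkn1a, which encodes the cyclin-dependent kinase inhibitor p21 and is the best known arrest target of p53, lies on chromosome 17 (29090976 to 29100727). It was abundant in both groups, at 126, 108 and 109 FPKM in L-OHP+FUC and 120, 154 and 105 FPKM in L-OHP. The groups overlap, with L-OHP replicate 2 highest, and the log2 fold change was -0.13 (95% interval -0.49 to 0.24; limma adjusted p = 0.566). Without L-OHP replicate 2 its log2 fold change was 0.024. Cdkn1a overlaps AC167363.2 on the opposite strand (mean 2.72 FPKM).

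Plk3, a polo-like kinase of the stress response on chromosome 4 (117128655 to 117133963), stood at 6.34, 5.01 and 7.60 FPKM in L-OHP+FUC and at 3.14, 3.63 and 3.52 FPKM in L-OHP. Its groups do not overlap (log2 fold change 0.71, SE 0.14, limma adjusted p = 0.0159). Without L-OHP+FUC replicate 1 or L-OHP replicate 1 the call was lost (adjusted p = 0.0565 to 0.0577), and Plk3 overlaps Tctex1d4 on the opposite strand (mean 0.489 FPKM), whose reads may not be told apart because the use of strand is not stated. Plk2, its relative, also had higher values in every L-OHP+FUC library, at 56.8, 63.4 and 65.1 FPKM against 52.5, 51.2 and 48.2 FPKM in L-OHP, but did not pass (log2 fold change 0.28, adjusted p = 0.0590). It passed as higher after median ratio rescaling (adjusted p = 0.0197) and once GC content and length were corrected for (0.0245; 0.0197 to 0.187 over its 15 alternatives). Plk2 and Plk3 were the 2 members with all L-OHP+FUC values above all L-OHP values, a separation found for 16.1% of all tested genes.

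Psrc1, a microtubule and spindle protein, on chromosome 3 (108383839 to 108388231), stood at 0.303, 0.269 and 0.119 FPKM in L-OHP+FUC and at 0.878, 1.08 and 1.10 FPKM in L-OHP (log2 fold change -0.71, SE 0.11, limma adjusted p = 0.00830). It met the minimum for testing only through the L-OHP libraries, so that a difference was built into its inclusion. Its lowest L-OHP+FUC library corresponds to about 4 fragments and its highest L-OHP library to about 40, for its longest transcript. With a pseudocount of 0.1 in place of 1 its log2 fold change was -1.80. Btg2, an antiproliferative gene, stood at 7.28, 7.03 and 7.00 FPKM in L-OHP+FUC and 8.26, 9.55 and 7.67 FPKM in L-OHP (log2 fold change -0.22, adjusted p = 0.132), and Ccnd1, cyclin D1 of the G1 phase, at 6.19, 5.71 and 4.80 against 7.77, 7.31 and 6.74 FPKM (-0.34, adjusted p = 0.0613). Ccnd1 overlaps LTO1 on the opposite strand (mean 1.74 FPKM). Neither passed, although the groups did not overlap for either. Cgref1, a growth regulator with EF-hand motifs, stayed under the minimum for testing at 0.117 to 0.333 FPKM in L-OHP+FUC and 0.118 to 0.166 FPKM in L-OHP.

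Beside these genes, the 14 markers of cycling cells summed to 86.0 to 93.2 FPKM in L-OHP+FUC and 91.9 to 101 FPKM in L-OHP. Pcna, the sliding clamp of replication, held most of that sum, at 71.9, 76.6 and 70.7 FPKM in L-OHP+FUC and 82.6, 80.2 and 74.4 FPKM in L-OHP. Of the 7 markers tested, 1 passed, the proliferation antigen gene Mki67, named after its values were seen. The other tested markers went in both directions without a call. The log2 fold change was -0.25 for Top2a, -0.11 for Pcna and -0.043 for Mcm3. It was 0.24 for Mcm5, 0.12 for Mcm2 and 0.023 for Cdk1. Mki67 stood at 0.146, 0.657 and 0.618 FPKM in L-OHP+FUC and 3.53, 3.76 and 2.81 FPKM in L-OHP (log2 fold change -1.58, limma adjusted p = 0.00432). Its part in the values of the cell cycle members was not tested.

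**Figure D2:**
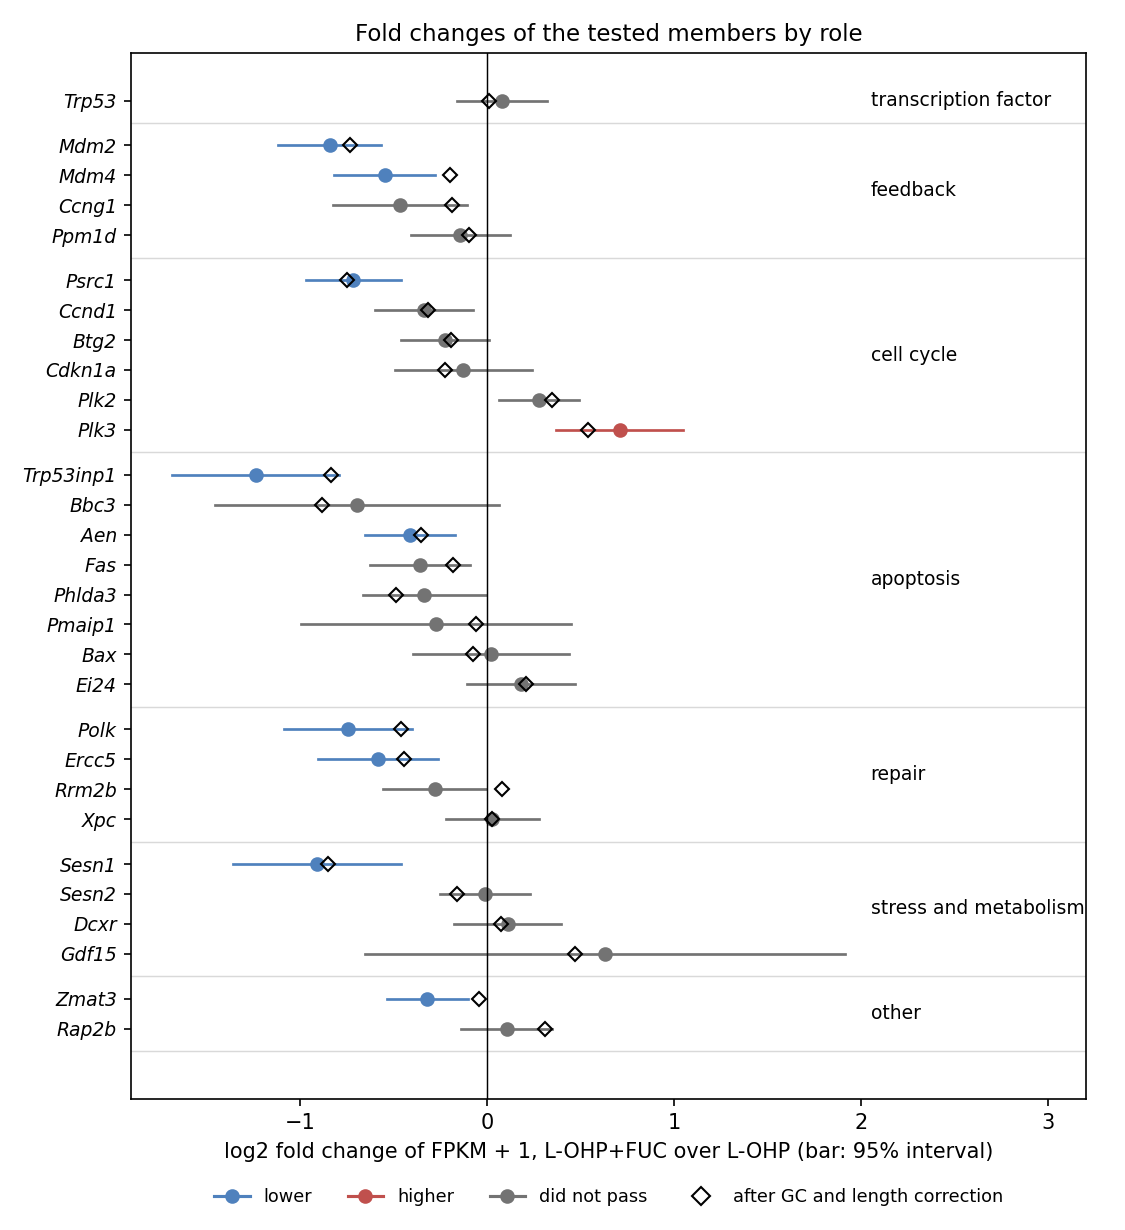
Log2 fold change of FPKM + 1, L-OHP+FUC over L-OHP, with its 95% interval for each of the 29 tested members, grouped by role. Blue points are lower, red higher, grey did not pass, and open diamonds give the value after the GC and length correction, which left Mdm2 at -0.73 and brought Zmat3 to -0.041.

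Of the 11 apoptosis genes 8 were tested, with 2 lower, none higher and 6 that did not pass. Trp53inp1, which promotes p53-dependent cell death and autophagy, had the most negative fold change among the members on the log2(FPKM + 1) scale, although Psrc1 had the lower ratio of mean FPKM, at 0.227 against 0.379 for Trp53inp1. It lies on chromosome 4 (11156431 to 11174379) and stood at 4.18, 4.25 and 6.19 FPKM in L-OHP+FUC and at 12.1, 10.5 and 16.0 FPKM in L-OHP. All L-OHP+FUC libraries are well below the lowest L-OHP library (log2 fold change -1.24, SE 0.19, limma adjusted p = 0.00847). Its transcript is also the poorest in G and C among the tested members, at 38.8%, and the GC and length correction gave a log2 fold change of -0.83 (adjusted p = 0.00702; up to 0.0392 over its 15 alternatives). Aen, a nuclease that enhances apoptosis, on chromosome 7 (78895854 to 78911209), stood at 5.76, 5.43 and 5.44 FPKM in L-OHP+FUC and at 8.55, 7.81 and 6.80 FPKM in L-OHP (log2 fold change -0.41, SE 0.10, adjusted p = 0.0274). The groups are separate but close, and the call of Aen was lost without any 1 of the L-OHP+FUC replicates or L-OHP replicate 1 (adjusted p = 0.0628 to 0.0954), and under median ratio rescaling (0.0738) or quantile normalization (0.0918). It was also lost without a filter and after the GC and length correction with the replicate number as a block. The call was thus lost under 8 of its 15 alternatives (limma adjusted p = 0.0525 to 0.0954).

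The BCL2-family members did not pass. Bax, which opens the mitochondrial outer membrane, stood at 66.6, 54.8 and 59.0 FPKM in L-OHP+FUC and at 57.0, 76.0 and 47.4 FPKM in L-OHP. The means were nearly equal, at 60.1 ± 5.94 and 60.2 ± 14.6 FPKM (SD, n = 3 each; log2 fold change 0.022, 95% interval -0.40 to 0.44, limma adjusted p = 0.937). Bbc3, which encodes PUMA, an activator of Bax, stood at 9.55, 9.18 and 10.8 FPKM in L-OHP+FUC and at 12.7, 29.6 and 11.9 FPKM in L-OHP, with every L-OHP library higher and L-OHP replicate 2 far above its group. Its log2 fold change was -0.69 (adjusted p = 0.146), it was -0.29 without L-OHP replicate 2 (adjusted p = 0.0759), and it was -0.88 after the GC and length correction, where it passed (adjusted p = 0.0416; up to 0.286 over its 15 alternatives). Pmaip1, which encodes NOXA, another such activator, overlapped between the groups, at 2.87, 6.51 and 8.19 FPKM in L-OHP+FUC and 6.15, 6.61 and 7.63 FPKM in L-OHP. Its low value in L-OHP+FUC replicate 1 set its sign, since the log2 fold change was -0.27 with that library and 0.096 without it. L-OHP replicate 2 was the highest of the 6 libraries for 8 of the 29 tested members, namely Mdm2, Cdkn1a, Btg2, Bax, Bbc3, Fas, Phlda3 and Rap2b, and L-OHP replicate 3 for 9. The matching shares over all tested genes were not counted. All tested genes together also lay above their means in L-OHP, by 0.064, 0.071 and 0.065 log2 units, so these counts only describe the members.

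The other tested apoptosis genes were Fas, a death receptor, Phlda3, an inhibitor of the survival kinase Akt, and Ei24, a protein of the endoplasmic reticulum. Fas stood at 7.32, 9.33 and 9.30 FPKM in L-OHP+FUC and at 11.5, 11.8 and 10.7 FPKM in L-OHP, without overlap and without a call (log2 fold change -0.36, limma adjusted p = 0.0550). It passed among genes with a mean of at least 5 FPKM (adjusted p = 0.0495; up to 0.240 over its 15 alternatives). Phlda3 stood at 6.53, 5.19 and 5.39 FPKM in L-OHP+FUC and 6.62, 9.01 and 6.84 FPKM in L-OHP (log2 fold change -0.34, adjusted p = 0.113), and passed as lower after the GC and length correction (-0.49, adjusted p = 0.0109; up to 0.321 over its 15 alternatives). Ei24 overlapped at 10.6 to 12.9 FPKM in L-OHP+FUC and 8.78 to 11.6 FPKM in L-OHP (log2 fold change 0.18, adjusted p = 0.2995). The death receptor Tnfrsf10b, the receptor Eda2r of the same family and the membrane protein gene Perp were under the minimum for testing, at no more than 0.246 FPKM in any library.

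The repair genes had 2 lower members of 4. Polk, a DNA polymerase that copies past damaged bases, on chromosome 13 (96480690 to 96542579), stood at 0.663, 0.744 and 1.22 FPKM in L-OHP+FUC and at 1.95, 1.92 and 2.51 FPKM in L-OHP (log2 fold change -0.74, SE 0.14, limma adjusted p = 0.0146). Ercc5, which encodes the XPG endonuclease of nucleotide excision repair, the pathway that removes platinum adducts within a strand, lies on chromosome 1 (44147744 to 44181260). It stood at 0.762, 0.894 and 1.07 FPKM in L-OHP+FUC and at 1.96, 1.43 and 2.23 FPKM in L-OHP (log2 fold change -0.58, SE 0.13, adjusted p = 0.0230). Both genes are low, and their groups do not overlap. The call of Polk did not hold once L-OHP+FUC replicate 1 or 2 was left out (adjusted p = 0.0546 and 0.0593), and that of Ercc5 did not hold without either of these, L-OHP replicate 1 or L-OHP replicate 3 (0.0586 to 0.0812) and under quantile normalization (0.0690). Ercc5 also lost its call without a filter and after the GC and length correction with the replicate number as a block. That made 7 of its 14 alternatives. The log2 fold change of Polk was -0.46 after the GC and length correction and -1.22 with a pseudocount of 0.1, and that of Ercc5 was -0.35 under quantile normalization and -0.96 with that pseudocount.

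Xpc, which recognises damage at the start of the same excision pathway, stood at 3.96, 4.76 and 4.67 FPKM in L-OHP+FUC and at 3.99, 4.29 and 4.77 FPKM in L-OHP, with full overlap (log2 fold change 0.029, 95% interval -0.22 to 0.28, limma adjusted p = 0.856). Rrm2b, the p53-inducible subunit of ribonucleotide reductase that supplies nucleotides for repair, stood at 0.887, 0.999 and 1.33 FPKM in L-OHP+FUC and at 1.37, 1.45 and 1.70 FPKM in L-OHP (log2 fold change -0.28, adjusted p = 0.117). Its direction turned after the GC and length correction (0.080), and it overlaps on the same strand the abundant processed pseudogene Gm3362 (mean 76.6 FPKM), so its level is uncertain.

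In the stress and metabolism group 4 of 5 genes were tested, and 1 fell. Sesn1, a sestrin that restrains the growth kinase mTORC1, on chromosome 10 (41809935 to 41908424), stood at 5.78, 7.00 and 7.82 FPKM in L-OHP+FUC and at 13.9, 10.4 and 17.5 FPKM in L-OHP (log2 fold change -0.91, SE 0.19, limma adjusted p = 0.0175). The groups are separate, and the call was lost without L-OHP+FUC replicate 1, L-OHP+FUC replicate 2 or L-OHP replicate 1 (adjusted p = 0.0570 to 0.0638). Sesn2, its relative, which also responds to amino acid and oxidative stress, did not differ beyond its spread, at 23.8, 19.9 and 19.7 FPKM in L-OHP+FUC and 21.6, 22.1 and 20.05 FPKM in L-OHP (log2 fold change -0.011, 95% interval -0.25 to 0.23, adjusted p = 0.945). The 95% intervals of Sesn1 (-1.36 to -0.46) and Sesn2 do not overlap, although the difference between the genes was not tested.

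Gdf15, a secreted stress cytokine, had the largest standard error of the members, at 54.0, 15.3 and 43.2 FPKM in L-OHP+FUC and at 11.2, 33.9 and 24.2 FPKM in L-OHP. Its replicates differ as much as its groups do (log2 fold change 0.63, SE 0.54, limma adjusted p = 0.413), and leaving out 1 library moved the log2 fold change between 0.20 (without L-OHP replicate 1) and 1.16 (without L-OHP+FUC replicate 2). Dcxr, a sugar and dicarbonyl reductase, overlapped at 13.1 to 17.8 FPKM in L-OHP+FUC and 13.6 to 13.9 FPKM in L-OHP (log2 fold change 0.11, adjusted p = 0.519). Ddit4l, an inhibitor of mTORC1, was under the minimum for testing at 0.0630 to 0.397 FPKM in L-OHP+FUC and 0.0369 to 0.257 FPKM in L-OHP.

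Of the remaining members, Zmat3, an RNA-binding zinc finger protein on chromosome 3 (32334792 to 32366014), stood at 1.59, 1.56 and 1.43 FPKM in L-OHP+FUC and at 1.96, 2.20 and 2.30 FPKM in L-OHP (log2 fold change -0.32, SE 0.092, limma adjusted p = 0.0431). Its call was lost under 12 of its 14 alternatives, the most among the 9. It was lost whichever library was left out (adjusted p = 0.0767 to 0.116) and its log2 fold change was -0.041 after the GC and length correction (adjusted p = 0.786) and -0.093 under quantile normalization (0.508). Rap2b, a small GTPase, overlapped between the groups at 30.5 to 31.7 FPKM in L-OHP+FUC and 26.7 to 32.8 FPKM in L-OHP (log2 fold change 0.11, adjusted p = 0.466).

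**Figure D3:**
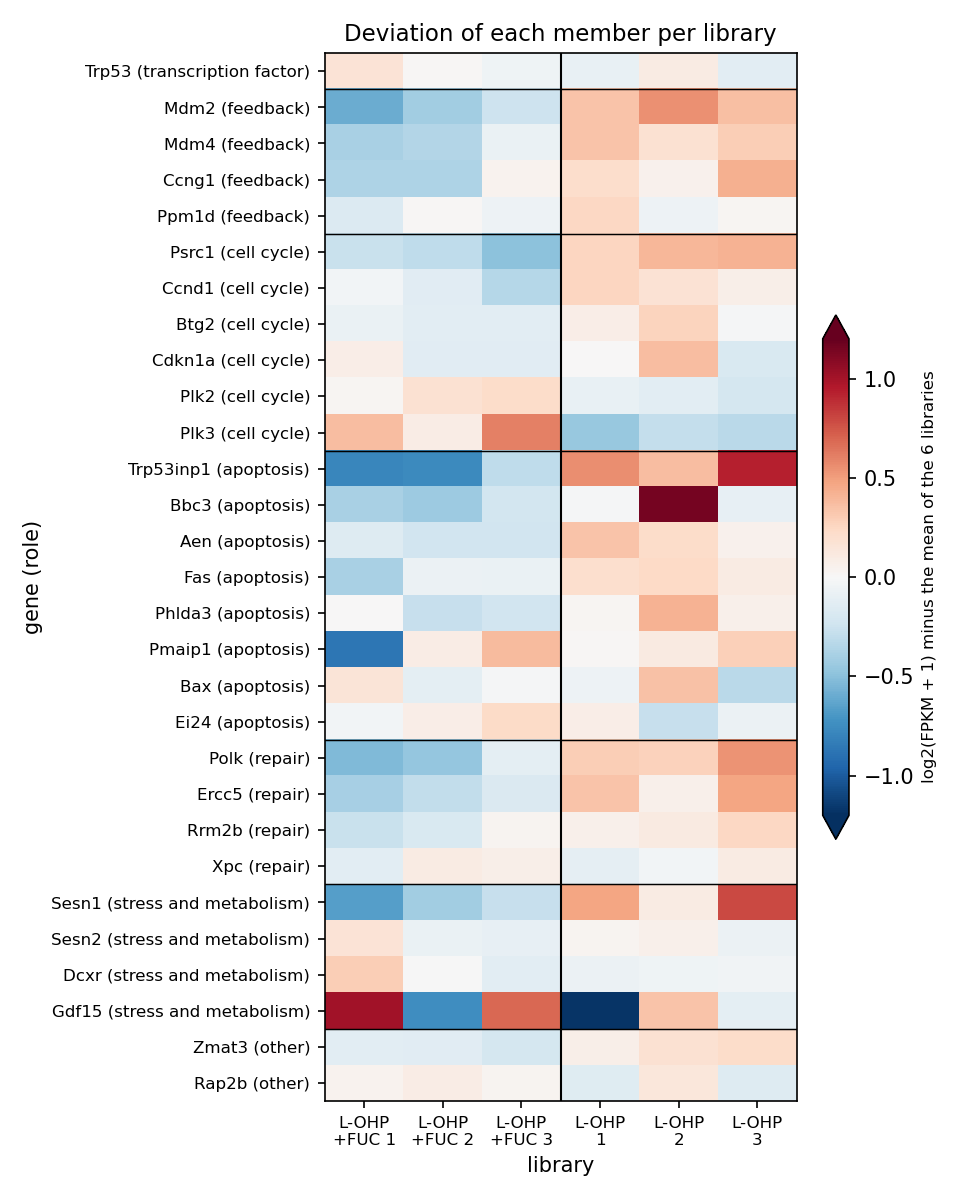
Deviation of log2(FPKM + 1) from the mean of the 6 libraries, for each tested member (rows, grouped by role) in each library (columns, L-OHP+FUC left of L-OHP); blue is below and red above the gene's mean. Mdm2, Trp53inp1 and Sesn1 are blue in all L-OHP+FUC libraries, while Gdf15 and Pmaip1 vary between replicates and Bbc3 is high in L-OHP replicate 2.

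Set side by side, lower calls were made for 2 of 4 feedback genes, 1 of 6 tested cell cycle genes, 2 of 8 tested apoptosis genes, 2 of 4 repair genes and 1 of 4 tested stress and metabolism genes, against 19.3% of all tested genes. The median log2 fold changes were -0.50 for feedback, -0.43 for repair, -0.35 for apoptosis, -0.18 for the cell cycle and 0.050 for stress and metabolism. With 4 to 8 genes a role and no test between roles, these values only describe the members. After the GC and length correction the medians of feedback, repair, apoptosis and the cell cycle lay close together, at -0.19, -0.21, -0.26 and -0.21, and that of stress and metabolism was -0.042. Averaged over the 29 members, the deviation from the gene means was -0.15, -0.19 and -0.045 in L-OHP+FUC and 0.070, 0.19 and 0.13 in L-OHP, in log2 units. Over all tested genes it was -0.095, -0.072 and -0.032 in L-OHP+FUC and 0.064, 0.071 and 0.065 in L-OHP, so part of the members' shift is shared by the whole table. All L-OHP+FUC values lay below all L-OHP values for 16 of the 29 members, against 30.9% of all tested genes. The 16 include Psrc1, whose separation was fixed by the minimum for testing. Psrc1 is also the 1 cell cycle gene called lower.

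The count of lower members depended on single libraries. It was 3 without L-OHP+FUC replicate 1, 3 without L-OHP+FUC replicate 2 and 4 without L-OHP replicate 1, while the count of lower genes over all tested genes fell from 2335 to 917, 835 and 1029. Of the 10 members past the threshold, 3 stayed past it under every alternative that tested them, namely Mdm2, Trp53inp1 and Psrc1, the last of which was tested only through its L-OHP level. For Mdm2 the adjusted p ran from 0.00649 to 0.0358 over 15 alternatives. In the authors' deposited table, 7 of the 29 tested members had a q-value under 0.05 and a ratio under 1, all of them among the 9 lower members (12.9% of all tested genes had both), and 2 had such a q-value with a ratio above 1 (9.93% of all tested genes). The 2 higher ones in the authors' deposited table were Plk3 (q = 0.000530) and Plk2 (q = 0.0469). Aen and Zmat3 had a q of 0.145 and 0.159 in the authors' deposited table, and that of Mdm2 was 0.000189. The authors' own mark of significance, in a separate column, was yes for Psrc1, Trp53inp1, Polk, Ercc5 and Sesn1. It was no for every other member, Mdm2, Mdm4, Plk2 and Plk3 included. The genes marked yes had log2 ratios of mean FPKM from -2.14 to -1.02. Those of Mdm2, Mdm4, Plk2 and Plk3, whose q-values were also under 0.05, were -0.87, -0.70, 0.29 and 0.88.

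Base composition moved with the fold changes across the whole table. The median log2 fold change was -0.30 for the 3149 tested genes whose longest transcript had under 45% GC, -0.15 for the 3209 with 45% to under 50% and 0.026 for the 5716 with 50% or more. The members follow the same order, with medians of -0.46 for 7 genes, -0.22 for 9 genes and -0.011 for 13 genes. Lower calls went to 3 of the 7 members under 45% GC (30.8% of all tested genes in that class), to 4 of the 9 between (21.7%) and to 2 of the 13 above (11.7%). After each library had been corrected for GC content and transcript length, 9 members were lower and 2 higher, against 11.9% and 11.5% of all tested genes. Of these 9, 7 were also lower without the correction, with Mdm4 and Zmat3 replaced by Bbc3 and Phlda3. The correction moved the median of all tested genes from -0.10 to 0.0091 and that of the members from -0.28 to -0.18. It also changed the split over all genes, from 2335 lower and 927 higher to 1437 lower and 1390 higher, as did median ratio rescaling (1680 and 1581) and quantile normalization (1359 and 1565), under which 7 and 6 members were lower and 2 and 1 higher.

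**Figure D4:**
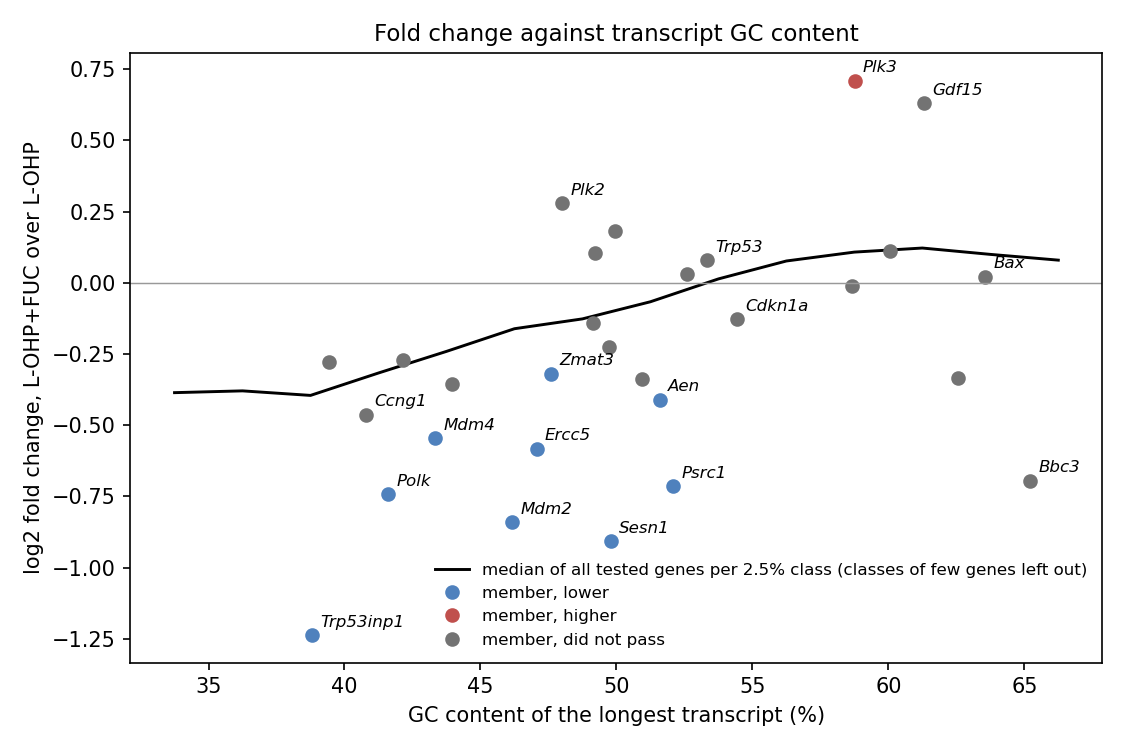
Log2 fold change, L-OHP+FUC over L-OHP, against the GC content of the longest transcript for the 29 tested members (points) with the median of all tested genes per 2.5% class (line). Mdm2, Sesn1 and Trp53inp1 lie well below the line at 46.2%, 49.8% and 38.8% GC, whereas Ccng1 lies nearer to it.

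Other genes of the pathway were taken from the KEGG annotation of the deposited table, which assigns 71 genes to p53 signalling, 17 of them members. Of the other 54, 40 were tested, with 6 lower, 1 higher and 33 that did not pass, or 15.0% lower against 19.3% of all tested genes, and their median log2 fold change was -0.086. The 4 lower ones with the smallest p were Ccng2, an atypical cyclin (log2 fold change -0.57, limma adjusted p = 0.00919), the stress sensor Gadd45g (-0.91, adjusted p = 0.00971), the G1 kinase Cdk6 (-0.61, adjusted p = 0.0137) and the damage kinase Atm (-0.74, adjusted p = 0.0142). Gadd45g stood at 9.31, 10.4 and 10.1 FPKM in L-OHP+FUC and 18.7, 24.3 and 16.3 FPKM in L-OHP, and Atm at 0.897, 0.852 and 1.57 against 2.39, 2.55 and 2.54 FPKM. The higher gene was Shisa5, a proapoptotic membrane protein also called Scotin (log2 fold change 0.28, adjusted p = 0.0428). After the GC and length correction Cdk6 and Atm had no call (adjusted p = 0.262 and 0.0820), nor had Shisa5 (0.127).

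Among 35 regulators that act on the p53 protein, 8 of which KEGG also lists, 31 were tested, with 9 lower, 1 higher and 21 that did not pass (29.0% lower), and a median log2 fold change of -0.34. Over all tested genes 19.3% were lower and 7.67% higher, with a median of -0.10. The 4 lower ones with the smallest p were the acetyltransferase Ep300 (log2 fold change -0.81, limma adjusted p = 0.00437), the methyltransferase Setd7 (-0.70, adjusted p = 0.0125), Atm, and Rpl11, a ribosomal protein that binds Mdm2 (-0.58, adjusted p = 0.0143). Ep300 stood at 6.22, 6.58 and 7.37 FPKM in L-OHP+FUC and 11.97, 12.4 and 13.3 FPKM in L-OHP. Reads of Rpl11 may be shared with processed copies of the gene. The higher one was Trim28, a corepressor that cooperates with Mdm2 (0.43, adjusted p = 0.0187). After the GC and length correction 5 regulators were lower (11.9% of all tested genes), with Ep300 at -0.57 (adjusted p = 0.00555), and the median was -0.13. With that correction 1 regulator was higher (11.5% of all tested genes), namely Cop1 (log2 fold change 0.59, limma adjusted p = 0.0175). Trim28 then had no call (0.26, adjusted p = 0.124).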

How the data were processed

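Gene expression was measured by sequencing of rRNA-depleted total RNA in 3 L-OHP+FUC and 3 L-OHP samples, grouped by their titles. The submitters' processing notes name bcl2fastq 2.0, HISAT2, StringTie, DESeq2, limma and mm10, without their roles; the labels do not state how reads were counted, whether strand was used or which annotation was taken. The authors deposited FPKM per gene, in which 0.0001 stands for an undetected gene and was read as 0. The fold column is the authors' ratio of mean FPKM and the log2 column its log2, per the file headers. The p-value and q-value columns were deposited by the authors, by an unstated tool.

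Values were tested as log2(FPKM + 1) with limma 3.58.1 (R 4.3.3; eBayes with trend; Benjamini-Hochberg, two-sided) on genes reaching 0.5 FPKM in 3 or more libraries. Depth was implied from the most frequent value of a single fragment in genes with 1 transcript of at least 1000 bases; no counts were recovered, so no count test was run. No pair of libraries shared more than 13 identical values. GC content, length and coordinates came from GENCODE M21 (GRCm38), matched by gene ID for 99.5% of genes; the correction subtracted loess trends (span 0.3, 4 robust iterations) per library. Alternatives were quantile normalization, median ratio rescaling, a pseudocount of 0.1, no trend, no filter or one on the mean (5 FPKM or more), the replicate number as a block, and leaving out each library. Every member is accounted for by role, and up to 4 genes per direction with the smallest p are named from the other lists; where a symbol named several rows, the higher mean FPKM was used. The members and lists were chosen with earlier results of these data known. The code was tested on simulated data.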

Additional observations from a re-analysis of the deposited data

How the results depend on the processing

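Counts of lower and higher genes are given as lower/higher. Against 9/1 members, 6/1 other pathway genes, 9/1 regulators and 2335/927 genes in all, the counts moved by over 1.5 times as follows. Without a filter there were 0 higher pathway genes and 1520/561 genes in all. With a mean of at least 5 FPKM there were 5/0 members, 3 lower pathway genes, 5 lower regulators and 966 lower genes in all. Median ratio rescaling gave 2 higher members, 3 higher pathway genes and 1581 higher genes in all. Quantile normalization gave 2 higher pathway genes, 5/2 regulators and 1359/1565 genes in all. The GC and length correction gave 2 higher members, 2 higher pathway genes, 5 lower regulators and 1437 lower genes in all. The cause was not tested, except that a filter changes the number of genes adjusted over and tested.

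The replicate numbers are not shown by the labels to pair the samples, and deviations of same-numbered libraries correlated at -0.0365, -0.0711 and 0.0827. With the number as a block, 9/1 members, 0 higher pathway genes and 1762/554 genes in all passed. With the block and the GC and length correction there were 6/0 members, 2 lower pathway genes, 1 lower regulator and 809/656 genes in all.

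Leaving out 1 library each gave 3 to 9 lower and 0 to 1 higher members, 2 to 7 lower and 0 to 2 higher pathway genes, 3 to 12 lower and 0 to 1 higher regulators, and 835 to 2256 lower and 266 to 1121 higher genes in all.

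Signs that turned belong to uncalled members. Ppm1d had a log2 fold change of 0.022 under quantile normalization, Sesn2 0.11 under median ratio rescaling, and Rrm2b 0.080 after the GC and length correction, with and without the block. Bax stood at -0.0037 under quantile normalization and -0.073 after the correction, with and without the block. Leaving out a library moved Bax between -0.13 and 0.20, Cdkn1a between -0.25 and 0.024, Pmaip1 between -0.53 and 0.096, Xpc between -0.019 and 0.098, Sesn2 between -0.096 and 0.035, and Dcxr between -0.0094 and 0.20. Depth limits Psrc1, Polk and Ercc5 most, the last 2 with as few as 49 and 59 implied fragments in a library.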

Other observations

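Ddb2, which encodes the damage-binding partner of the excision repair factor XPC, was looked at after its values were seen. It was under the minimum for testing, because only 2 libraries reached 0.5 FPKM. It stood at 0.225, 0.298 and 0.397 FPKM in L-OHP+FUC and at 1.31, 0.406 and 1.41 FPKM in L-OHP. Every L-OHP+FUC library was below every L-OHP library, though only just (0.397 against 0.406 FPKM). Such a separation was found for 30.9% of all tested genes, and its share among untested genes was not counted. Sesn3, Ccnb2 and Ccne2, other KEGG genes under the minimum, were separated in the same direction.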
